A study of Mus musculus with 30 samples.

Results

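The early course of 3T3-L1 cultures under quizalofop-p-ethyl (QpE) is described here, from 6 h to 24 h. It was read from 10 of the 30 RNA sequencing libraries of the study, 5 cultures given QpE and labelled 24 h and 5 cultures given QpE and labelled 6 h, which were chosen by their labels alone. The 10 early control libraries, 5 cultures labelled 24 h and 5 labelled 6 h without QpE, give the change over the same interval in cultures without QpE. QpE was given at 50 µM (0.05 mM in the labels). All 20 cultures came from the murine line 3T3-L1, used up to passage 10, and were grown in multiwell plates. Per the labels' protocols they had spent 2 days in a differentiation medium with fetal bovine serum, insulin and the phosphodiesterase inhibitor isobutylmethylxanthine before a medium change started the exposure, so controls and QpE cultures share these agents. Dexamethasone, part of the usual adipogenic mixture, was named in the protocol as a positive control and not as part of this medium, and no such culture was analysed here. The labels state neither what the controls received in place of QpE nor from which event the 6 h and 24 h were counted. They number the libraries of a group as culture replicates and say no more of their origin, so p-values measure the spread between these libraries. The libraries made on day 12 were not used for these results.

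3T3-L1 cells are fibroblast-like preadipocytes of 1 line. After growth arrest, inducing agents send them through a short burst of DNA replication and mitosis (clonal expansion), they lose stress fibres and the contractile programme of spread fibroblasts, and C/EBP factors and PPARγ then switch on the genes of the fat cell. The contractile programme is driven by serum response factor (SRF) with its actin-controlled partner MRTF, and by YAP with TEAD factors, which respond to cell tension. QpE is an aryloxyphenoxypropionate herbicide whose target in grasses is acetyl-CoA carboxylase, the first committed enzyme of fatty acid synthesis.

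Expression was measured as FPKM (fragment numbers set against the length of the transcript and the size of the library), summed here per gene name. Fitted changes are differences of log2(FPKM + 1), a scale on which weakly expressed genes appear to change less than they did, and are given ± SE, as 24 h minus 6 h. Genes rose or fell, in these terms, when limma's adjusted p (Benjamini-Hochberg over all genes tested) was under 0.05. Summed FPKM was 440837 to 463043 in the QpE 24 h libraries and 413502 to 432161 in the QpE 6 h libraries, and depth estimated from the steps between low values was, in units of 1e+06 fragments, 11.2 to 12.0 at 24 h and 12.3 to 15.7 at 6 h. The cultures carry the cell type label "differentiated", but Dlk1, which marks preadipocytes, stood at 895 ± 43.5 FPKM in QpE 24 h cultures and 882 ± 80.8 FPKM in QpE 6 h cultures (SD, n = 5 each), and Lep, the fat cell hormone leptin, was listed at 0 in 19 of the 20 early libraries. The other 6 of 7 fixed adipocyte markers reached a mean of 1 FPKM over these libraries, with Fabp4 at 99.7 FPKM and Adipoq at 34.8 FPKM. Of the fixed markers of macrophages, endothelium and epithelium, none reached a mean of 1 FPKM, and of the muscle markers Myod1 and Myog were listed at 0 in all 20 and Des, desmin, averaged 1.33 FPKM. Replicate 4 of QpE at 24 h stood apart on the second principal component (-49.3, against -7.58 to 13.5 in the other QpE 24 h libraries), an axis with 7.77% of the variance, while the first, with 20.4%, separated all 24 h from all 6 h libraries. Whether strand was used in counting is not given in the sources used here, so Fabp4, Top2a, Meis2, Ephx1, Dbp, Ddit3, Tk1, Igf2r, Col4a1, Junb, Cebpb, Cebpa, Cebpd, Vcl, Cdc20, Ccnd1 and Nop58, which share or overlap a locus with another gene, carry that uncertainty.

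Between QpE 24 h and QpE 6 h cultures 1603 genes rose (13.0% of 12332 tested) and 1422 fell (11.5%). The counts of list members given below are to be read against these shares. Changes above 1 on the log2 scale were seen in 184 of the genes that rose and 228 of those that fell, and the median change of all genes was 0.04. The 5 and 5 libraries did not overlap for 1054 genes that were higher (8.55%) and 1080 that were lower (8.76%); in controls these shares were 7.21% and 9.54%. The balance of the directions moved with the scaling: of the genes called, 53.0% were higher at 24 h as deposited but 34.3% (1031 higher, 1972 lower) when every library was scaled to the same FPKM sum. Without replicate 4 of QpE at 24 h, 1401 genes rose and 1265 fell.

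Many of these changes were also seen without the herbicide. In controls 1087 genes rose (8.81%) and 1315 fell (10.7%), with a median change of 0.01 over all genes. Of the 3025 genes called in the QpE course, 97.5% had a change of the same sign in controls and 60.3% were called there in that direction; of the 2402 called in controls, 76.0% were called in the same direction with QpE. The groups share no library. A test of the difference between the courses called no gene (0.00%; lowest adjusted p = 0.826 in limma), with 570 genes at an unadjusted p under 0.05 where 617 are given by chance. The size of the change was larger with QpE than in controls for 2306 of the 3025 genes, a count that favours QpE because those genes were picked by their call there. QpE and control cultures were also compared at each time, again with no gene called: at 24 h the lowest adjusted p was 0.0615 with 988 genes at an unadjusted p under 0.05, and at 6 h it was 1 with 377. With the replicate number as a block, 22 genes were called at 24 h and 0 at 6 h.

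**Figure D1:**
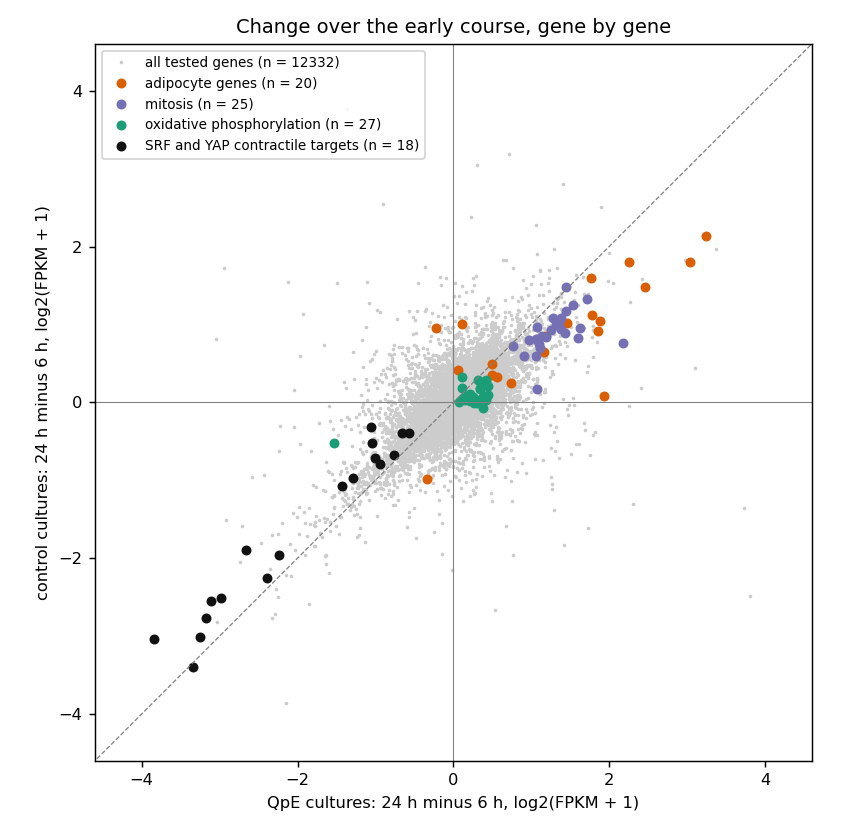
Change of each tested gene from 6 h to 24 h in QpE cultures (x axis, 24 h minus 6 h of log2(FPKM + 1)) against the same change in control cultures (y axis). Grey points are all 12332 genes, of which 2 lie beyond the axes, coloured points are members of 4 lists, and the dashed line marks equal change; the contractile genes lie at the lower left, the mitosis and adipocyte genes at the upper right.

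The contractile and matricellular genes had the lowest median change of the 31 lists. All 18 tested members of the list of SRF and YAP contractile targets fell with QpE and none rose, with a median change of -1.83; in controls 15 of the 18 fell, with a median of -1.49. Another 2 members did not pass the filter on low values. The mean log2(FPKM + 1) of its tested members was 4.17, 4.22, 4.31, 4.14 and 4.15 in the QpE 24 h libraries and 5.92, 5.96, 6.58, 6.39 and 6.07 in the QpE 6 h libraries. The 24 h libraries lay close together, and at 6 h replicates 3 and 4 were the highest. Replicates 3 and 4 were also the highest of the control 6 h libraries (6.26 and 6.57).

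Acta2, the actin of smooth muscle and of contractile fibroblasts, had 82.3, 73.2, 59.2, 70.1 and 55.7 FPKM in QpE 24 h cultures against 490, 510, 738, 702 and 540 FPKM in QpE 6 h cultures. The groups were far apart, and the change was -3.11 ± 0.18 with QpE (adjusted p = 8.67e-09) and -2.55 ± 0.18 in controls (adjusted p = 2.37e-07). Actg2, the related enteric actin, also fell, with values of 0.867 to 1.63 FPKM at 24 h and 15.8 to 27.4 FPKM at 6 h, by 3.25 on the log2 scale (adjusted p = 7.8e-08). Tagln, an actin-binding protein of the same programme, had 2.97 to 4.22 FPKM at 24 h and 14.8 to 32.4 FPKM at 6 h, a change of -2.39 ± 0.17 (adjusted p = 3.98e-08); Pcsk7 overlaps it on the other strand. Myl9, the regulatory light chain of smooth muscle myosin, was listed at 0, 6.14, 4.73, 0 and 5.36 FPKM at 24 h against 21.8, 25.3, 26.6, 32.9 and 27.1 FPKM at 6 h. With the unnamed assembled transcripts of its locus joined to it, Myl9 had 4.04 to 6.16 FPKM at 24 h and 21.9 to 33.0 FPKM at 6 h, and its change was -2.16 in place of -3.18.

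Secreted targets of YAP fell too. Cyr61, a matricellular protein and a standard readout of YAP, had 11.5, 11, 13.7, 9.83 and 9.26 FPKM in QpE 24 h cultures against 72.3, 68.2, 152, 103 and 93.4 FPKM in QpE 6 h cultures. Its change was -2.98 ± 0.27 with QpE (adjusted p = 4.9e-07) and -2.52 ± 0.27 in controls. Ctgf, its relative and the other standard readout, had 0.0996, 0.066, 0.369, 0.0684 and 0 FPKM at 24 h against 8.19, 8.44, 31.1, 28.9 and 11.3 FPKM at 6 h. It was nearly silent in every 24 h library and showed 2 levels at 6 h, with replicates 3 and 4 above the rest; the fitted change was -3.84 ± 0.57 (adjusted p = 8.78e-05), and -3.03 ± 0.57 in controls. Thbs1, thrombospondin 1, had 10.9, 10.9, 7.51, 10.7 and 11.3 FPKM at 24 h against 51.7, 62.9, 97.7, 79.6 and 64.1 FPKM at 6 h. Thbs1 changed by -2.66 ± 0.17 with QpE (adjusted p = 1.8e-08) and -1.90 ± 0.17 in controls; the difference between the courses, -0.76 (95% interval -1.27 to -0.25), did not pass the adjustment over all genes (adjusted p = 0.969).

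**Figure D2:**
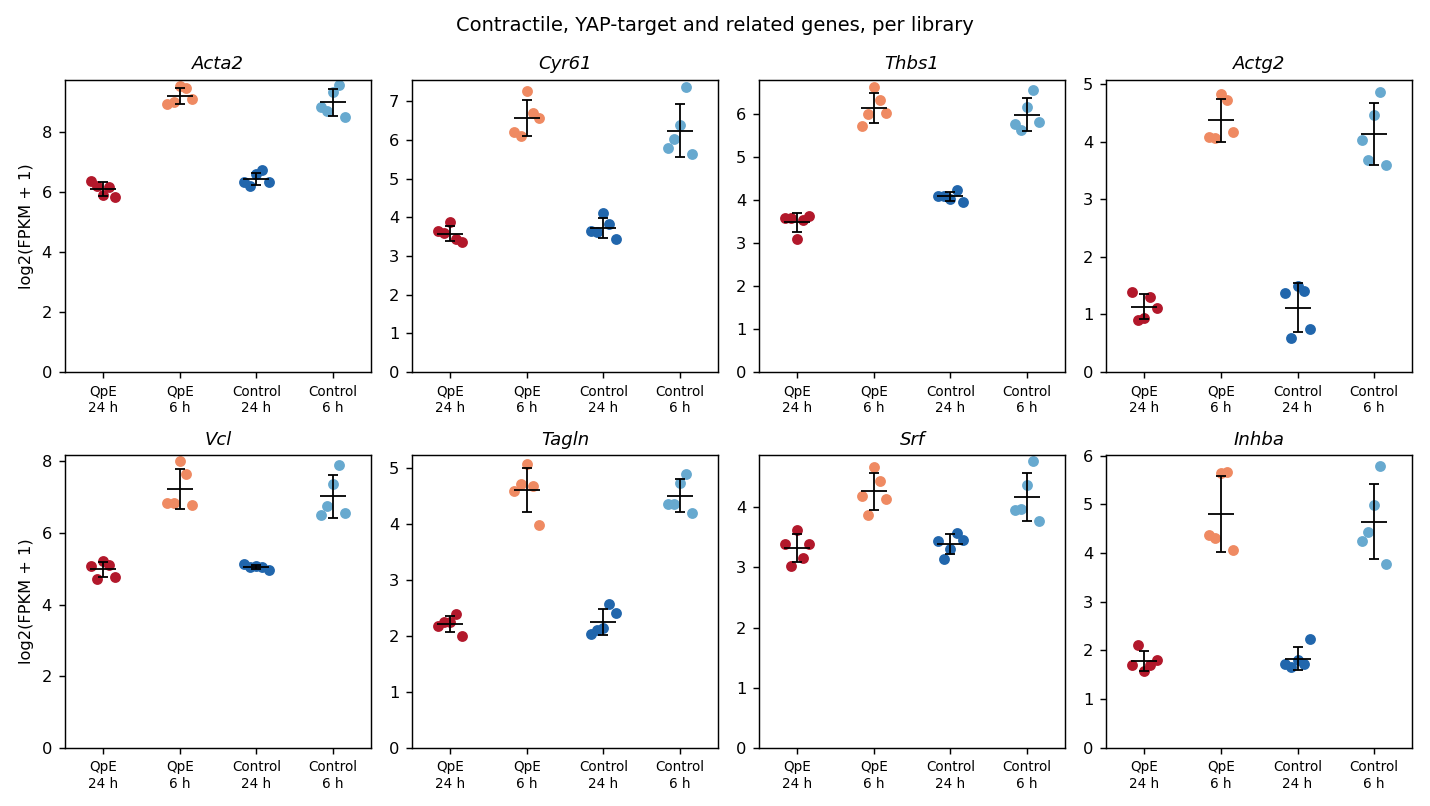
Level of 8 genes in each early library as log2(FPKM + 1); points are single cultures (5 per group), the bar is the mean and the whiskers are 1 SD. In each panel both 24 h groups lie below both 6 h groups.

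The start regions of genes of this list are shown because SRF binds a short A/T-rich motif (the CArG box) and TEAD factors, the partners of YAP, bind GGAATG. RefSeq start regions (build GRCm38.p6, searched over 250 bases before each start) were found for 8825 of the 12332 tested genes and for 13 of the 18 tested members. On either strand, the CArG box was found in 4 of the 13 windows (30.8%) and in 97 of all 8825 (1.1%), and GGAATG in 6 of the 13 (46.2%) and in 886 of all (10.0%). Stretches of 120 bases are printed 5′ to 3′ on the strand of the gene for 6 genes chosen for holding a match after their values were seen, with the matches to these motifs in capitals (CArG boxes in Srf, Cnn2, Myl9 and at the left in Vcl; GGAATG or its reverse complement in Acta2, Cyr61 and at the right in Vcl). They lie, in GRCm38.p6, for Srf at chr17:46556165-46556284 on the minus strand, Vcl at chr14:20929148-20929267 on the plus strand, Cnn2 at chr10:79988480-79988599 on the plus strand, Myl9 at chr2:156775243-156775362 on the plus strand, Acta2 at chr19:34255460-34255579 on the minus strand and Cyr61 at chr3:145650029-145650148 on the minus strand (named Ccn1 in RefSeq). The members were listed as targets of SRF and YAP, so a higher share of these motifs was built into the comparison. A match describes these letters and was not tested for binding.
Srf: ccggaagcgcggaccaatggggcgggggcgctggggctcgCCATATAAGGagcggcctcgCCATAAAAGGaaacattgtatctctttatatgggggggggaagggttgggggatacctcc
Vcl: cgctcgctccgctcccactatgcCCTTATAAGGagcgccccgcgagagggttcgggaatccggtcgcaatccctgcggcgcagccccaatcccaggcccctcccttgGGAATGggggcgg
Cnn2: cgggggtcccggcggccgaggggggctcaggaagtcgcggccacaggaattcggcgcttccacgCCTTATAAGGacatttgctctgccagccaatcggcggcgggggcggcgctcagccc
Myl9: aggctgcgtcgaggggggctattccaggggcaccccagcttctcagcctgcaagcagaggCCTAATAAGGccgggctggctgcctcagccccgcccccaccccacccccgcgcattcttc
Acta2: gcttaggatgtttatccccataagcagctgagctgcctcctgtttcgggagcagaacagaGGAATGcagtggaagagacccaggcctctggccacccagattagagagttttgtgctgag
Cyr61: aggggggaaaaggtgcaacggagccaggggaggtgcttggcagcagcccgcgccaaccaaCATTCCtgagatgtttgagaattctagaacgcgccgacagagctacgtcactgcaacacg

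The genes with these stretches fell by different amounts. Srf itself had 9.53, 7.14, 11.3, 7.96 and 9.47 FPKM in QpE 24 h cultures against 17.3, 13.7, 24.5, 20.7 and 16.7 FPKM in QpE 6 h cultures, with no overlap and a change of -0.95 ± 0.18 (adjusted p = 6.97e-04). Vcl, the focal adhesion protein vinculin, had 32.6, 25.4, 36.3, 33.5 and 26.3 FPKM at 24 h against 114, 113, 255, 199 and 109 FPKM at 6 h. Its change was -2.24 ± 0.26 with QpE and -1.96 ± 0.26 in controls. Cnn2, the actin-binding calponin 2, had 98.8, 92.3, 86.5, 72.4 and 57.4 FPKM at 24 h against 154, 152, 187, 169 and 170 FPKM at 6 h, a change of -1.04 ± 0.13 (adjusted p = 1.81e-05).

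Genes outside this list shared the fall. Inhba, the activin A subunit, had 2.26, 3.35, 2.00, 2.25 and 2.47 FPKM in QpE 24 h cultures against 19.8, 18.8, 48.9, 49.9 and 15.7 FPKM in QpE 6 h cultures, a change of -3.03 ± 0.34 (adjusted p = 5.71e-06). Timp3, an inhibitor of matrix proteases, had 9.84 to 13 FPKM at 24 h and 42.9 to 106 FPKM at 6 h, a change of -2.47 ± 0.26; it shares an assembled locus with Fbxo7. Klhdc8a fell by 2.35 on the log2 scale, with 0.464 to 1.14 FPKM at 24 h and 6.38 to 11.2 FPKM at 6 h. Gcnt4, a glycosyltransferase, was listed at 1.42, 0, 0, 0 and 1.56 FPKM at 24 h against 6.02, 6.21, 13.2, 12.4 and 7.52 FPKM at 6 h, a fitted change of -2.74 ± 0.34. Replicates 3 and 4 were the highest at 6 h in each of these 4 genes, as in Ctgf and Vcl. With unnamed transcripts joined, the same replicate numbers were the highest of control 6 h for all of these genes.

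The cell division genes moved the other way. Of 25 tested members of the mitosis list, 24 rose with QpE and none fell, with a median change of 1.28; in controls 20 rose and the median was 0.89. Kif20a was the member that did not pass. The mean log2(FPKM + 1) of the list was 4.24, 4.36, 5.06, 5.02 and 4.55 in the QpE 24 h libraries and 3.28, 3.15, 3.24, 3.53 and 3.55 in the QpE 6 h libraries, with replicates 3 and 4 the highest at 24 h and no overlap. Replicates 3 and 4 were also the highest of the control 24 h libraries (4.42 and 4.74). Without replicate 4 of QpE at 24 h, 21 of the 25 rose.

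Cenpf, a kinetochore protein, had 12, 13, 18.1, 22.7 and 13.9 FPKM in QpE 24 h cultures against 3.29, 3.98, 4.48, 4.43 and 4.17 FPKM in QpE 6 h cultures. Its change was 1.71 ± 0.18 (adjusted p = 2.61e-06), and 1.33 ± 0.18 in controls. Top2a, the topoisomerase of dividing cells, had 16.2, 20.9, 64.6, 45.5 and 41.1 FPKM at 24 h against 5.95, 12, 13, 8.93 and 12.8 FPKM at 6 h, a change of 1.62 ± 0.31 (adjusted p = 9.64e-04). Its 24 h libraries spread widely, yet all lay above the 6 h libraries. Bub1, a spindle checkpoint kinase, had 6.12 to 13.4 FPKM at 24 h and 0.179 to 2.8 FPKM at 6 h, a change of 2.18 ± 0.54 (adjusted p = 0.00588). With the unnamed transcripts of its locus joined, Bub1 changed by 1.31, with 13.2 to 25.2 FPKM at 24 h and 5.91 to 7.73 FPKM at 6 h.

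Genes of DNA replication rose as well. Of 25 tested members of the DNA replication list 17 rose with QpE and none fell, with a median of 0.67; in controls 14 rose and the median was 0.42. Tk1, thymidine kinase, had 31, 19, 47.7, 44.4 and 37.1 FPKM in QpE 24 h cultures against 12.2, 11.5, 11.1, 14.8 and 6.05 FPKM in QpE 6 h cultures, a change of 1.59 ± 0.27 (adjusted p = 3.27e-04). Pola1, the catalytic subunit of polymerase alpha, had 8.87 to 18.2 FPKM at 24 h and 4.52 to 5.44 FPKM at 6 h, and Uhrf1, which carries DNA methylation through replication, had 20.8 to 28.3 FPKM at 24 h and 9.31 to 15.5 FPKM at 6 h. Neither overlapped between the times, and they changed by 1.08 ± 0.16 and 1.01 ± 0.12.

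Promoters of mitosis genes are known for pairing a CHR element, TTTGAA, with CCAAT boxes bound by NF-Y. A higher share of both in this list was thus known in advance. TTTGAA was found on either strand in 7 of the 22 mitosis windows (31.8%) and in 916 of all 8825 (10.4%), and CCAAT in 19 of the 22 (86.4%) and in 3332 of all (37.8%). CCAAT was also found in 14 of 21 DNA replication (66.7%), 9 of 17 interferon (52.9%) and 6 of 13 contractile windows (46.2%). Its shares were 5 of 11 (45.5%) for immediate early factors and 4 of 14 (28.6%) for adipocyte genes. AP-1, CRE and E2F motifs were searched in these lists too and are not reported here. Stretches of 120 bases are shown for 4 genes that hold both, again chosen after their values were seen, with the matches and their reverse complements in capitals. They lie, in GRCm38.p6, for Cdc20 at chr4:118437344-118437463 on the minus strand, Cdk1 at chr10:69352913-69353032 on the minus strand, Top2a at chr11:99024190-99024309 on the minus strand and Kif11 at chr19:37376262-37376381 on the plus strand.
Cdc20: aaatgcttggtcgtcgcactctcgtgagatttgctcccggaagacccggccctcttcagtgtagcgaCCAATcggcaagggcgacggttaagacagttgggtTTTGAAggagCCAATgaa
Cdk1: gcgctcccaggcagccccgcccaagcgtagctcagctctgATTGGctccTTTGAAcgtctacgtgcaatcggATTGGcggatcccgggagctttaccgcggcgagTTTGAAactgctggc
Top2a: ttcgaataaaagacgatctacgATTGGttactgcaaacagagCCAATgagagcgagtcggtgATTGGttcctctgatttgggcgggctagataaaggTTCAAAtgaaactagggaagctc
Kif11: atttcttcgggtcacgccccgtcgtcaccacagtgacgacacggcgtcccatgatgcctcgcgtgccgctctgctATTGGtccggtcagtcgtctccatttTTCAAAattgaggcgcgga

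Of these genes, Cdc20, an activator of the anaphase-promoting complex, had 46.5, 50.9, 60.4, 62.2 and 56.1 FPKM in QpE 24 h cultures against 21.4, 24.8, 24.9, 28.4 and 26.9 FPKM in QpE 6 h cultures. The change was 1.10 ± 0.11 (adjusted p = 2.07e-06), with a narrow spread at both times. Kif11, the motor that separates spindle poles, had 16.8, 17.1, 26.2, 31 and 21.4 FPKM at 24 h against 6.73, 7.62, 8.83, 9.91 and 10.4 FPKM at 6 h, a change of 1.26 ± 0.17. Cdk1, the mitotic kinase, had 14.5, 16.1, 19.6, 34.4 and 20.8 FPKM at 24 h against 11.7, 11.5, 9.42, 15.4 and 10.1 FPKM at 6 h; its groups overlapped and its change was 0.76 ± 0.24 (adjusted p = 0.0258). The call was lost without replicate 4 at 24 h or replicate 3 or 5 at 6 h (adjusted p up to 0.0746), while joining the unnamed transcripts gave Cdk1 a change of 1.57 (adjusted p = 6.84e-06).

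Genes that gate entry to the cycle were mixed. Of 18 tested G1 cyclins, inhibitors and partners, 6 rose and 1 fell, against 13.0% and 11.5% of all tested genes. Cdkn2c, an inhibitor of CDK4 and CDK6, had 49.1 to 61.8 FPKM in QpE 24 h cultures and 21.9 to 28.6 FPKM in QpE 6 h cultures, a change of 1.08 ± 0.12, and the related Cdkn2b rose by 0.65 ± 0.13. Cdkn1a, the p21 inhibitor, had 41.3, 38.3, 46, 37.6 and 37.1 FPKM at 24 h against 32.9, 26.9, 28, 30.1 and 15.7 FPKM at 6 h, a change of 0.60 ± 0.15 (adjusted p = 0.0072). Myc, the growth factor-induced transcription factor, was the member that fell, with 14.7 to 22.2 FPKM at 24 h and 30.2 to 47.5 FPKM at 6 h and a change of -1.01 ± 0.17 in QpE cultures and -0.99 ± 0.17 in controls. Ccnd1, cyclin D1, had 57.8 to 70.8 FPKM at 24 h and 52 to 73.8 FPKM at 6 h and did not pass.

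Of 14 tested immediate early factors 3 fell and 1 rose, a share near the 24.5% of all tested genes called in either direction. Fosl1, the AP-1 member Fra-1, fell furthest among them. It had 31.6, 27.4, 30, 27.5 and 38.3 FPKM in QpE 24 h cultures against 80.2, 73.3, 176, 122 and 94.6 FPKM in QpE 6 h cultures, a change of -1.72 ± 0.29 (adjusted p = 2.64e-04). Maff, a small Maf factor, changed by -1.66 ± 0.17, and Junb, an AP-1 partner, by -0.95 ± 0.19. Fos had 0.438 to 1.22 FPKM at 24 h and 0.425 to 1.25 FPKM at 6 h and did not pass. Genes of ribosome biogenesis, which Myc is known to activate, fell in part, and a link to Myc was not tested. With QpE 10 of 21 tested members, Myc counted among them, fell and 1 rose, against 11.5% and 13.0% of all tested genes. The median was -0.34, and in controls 12 fell and none rose, with a median of -0.47. Rrp12, a factor of ribosomal RNA processing, had 6.70 to 7.83 FPKM at 24 h and 12.3 to 16.7 FPKM at 6 h, a change of -0.95 ± 0.11; Nop58, a core protein of small nucleolar particles, was the member that rose, by 1.24 ± 0.40 (adjusted p = 0.0311), with overlapping groups. That call was lost without any 1 of 8 libraries (all but replicate 4 at 24 h and replicate 3 at 6 h; adjusted p up to 0.0833). Among 22 cytosolic ribosomal proteins 3 rose, a share near the 13.0% of all tested genes that rose, and none fell. None were called when the libraries were scaled to the same FPKM sum.

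**Figure D3:**
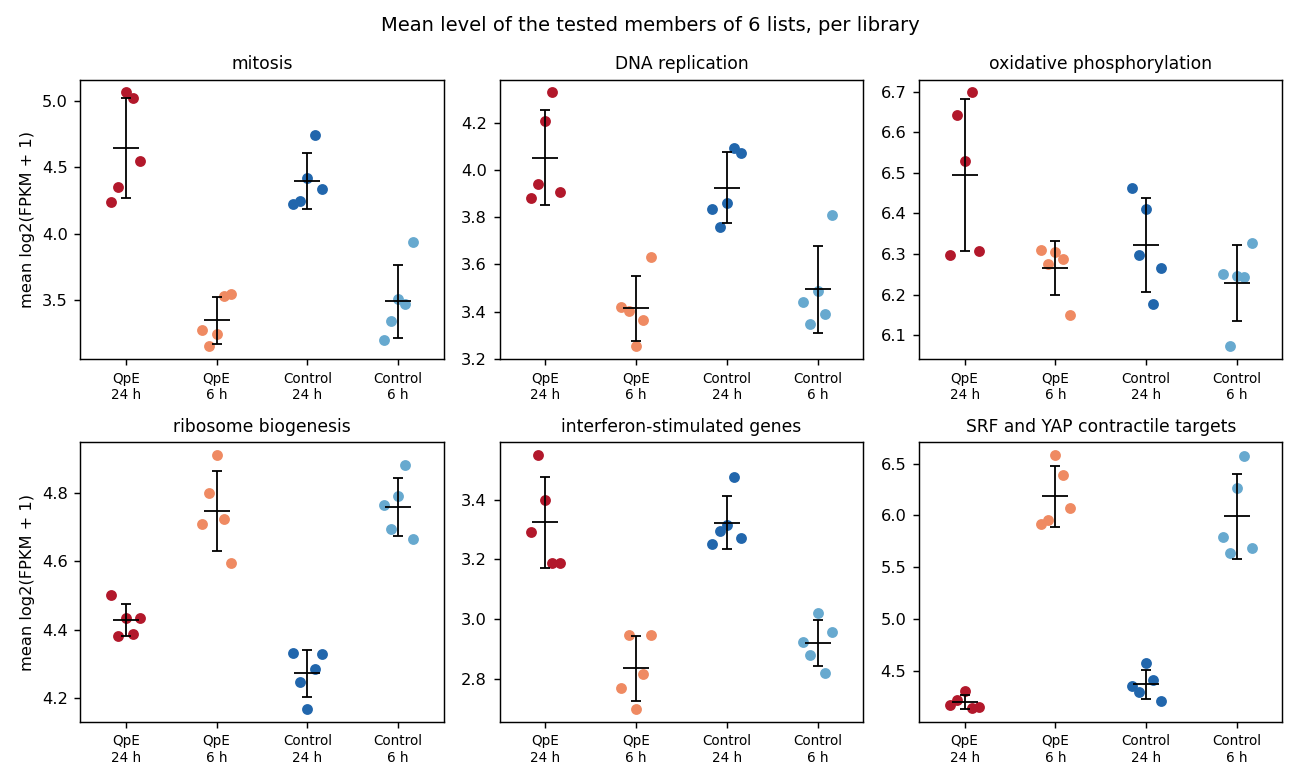
Mean log2(FPKM + 1) of the tested members of 6 gene lists in each early library (5 cultures per group; bar, mean; whiskers, 1 SD; the y axes do not start at 0). The 24 h libraries lie above the 6 h libraries for mitosis, DNA replication and interferon-stimulated genes with QpE, and below them for ribosome biogenesis and the contractile targets; for oxidative phosphorylation the groups overlap.

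Fat cell genes rose within the day. Of 20 tested members of the adipocyte list 14 rose with QpE and none fell, with a median change of 1.32 over the 20; in controls 6 rose, with a median of 0.94. The difference between the courses was called for no member of this or any other list. Another 5 members, among them Lep, did not pass the filter on low values, and members that passed it through their 24 h level alone had to differ. In RNA from whole cultures, more cells that express a gene and more RNA per cell cannot be told apart. The summed FPKM of the 7 fixed adipocyte markers was 243 to 357 in QpE 24 h cultures and 64.9 to 191 in QpE 6 h cultures.

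Fabp4, the fatty acid carrier of fat cells, had 144, 174, 151, 147 and 139 FPKM in QpE 24 h cultures against 35.3, 43.9, 81.1, 40.5 and 91.7 FPKM in QpE 6 h cultures. The 24 h libraries agreed within a narrow range while those at 6 h did not, and the change was 1.46 ± 0.32 (adjusted p = 0.00266), against 1.01 ± 0.32 in controls. Cd36, a fatty acid transporter, had 29.5, 36.1, 17.8, 16.7 and 26.2 FPKM at 24 h against 5.48, 5.82, 4.37, 0.0353 and 0.12 FPKM at 6 h. Its change was 3.04 ± 0.59 (adjusted p = 9.34e-04), or 2.39 with unnamed transcripts joined, which put the 6 h libraries at 2.56 to 6.97 FPKM. Cfd, the secreted protease adipsin, had 23.3, 30.5, 20, 7 and 15.2 FPKM at 24 h against 2.35, 3.92, 0.49, 3.06 and 3.08 FPKM at 6 h, a change of 2.46 ± 0.52 (adjusted p = 0.00188). Dgat2, which makes triglyceride from diacylglycerol, had 66.5, 72.3, 60.5, 36.5 and 33.6 FPKM at 24 h against 15.7, 15.4, 11.5, 10.1 and 14.5 FPKM at 6 h. Its change was 1.88 ± 0.31 with QpE (adjusted p = 2.22e-04) and 1.04 ± 0.31 in controls.

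The adipokine and droplet genes were less even between cultures. Adipoq, adiponectin, had 56.1, 68.8, 39.4, 23.7 and 50.7 FPKM in QpE 24 h cultures against 19.6, 20.2, 6.58, 4.3 and 24.9 FPKM in QpE 6 h cultures. Replicates 3 and 4 were the lowest at both times, and the lowest 24 h library was below the highest at 6 h. The change of 1.77 ± 0.57 (adjusted p = 0.0311) lost its call without any 1 of 5 libraries (replicates 1, 2 or 5 at 24 h, or 3 or 4 at 6 h, adjusted p up to 0.0894). It also lost the call with no filter on low values, and kept it with the replicate number as a block. Retn, the hormone resistin, had 4.5, 7.98, 6.81, 7.74 and 2.3 FPKM at 24 h against 1.7, 1.66, 0.0315, 0.528 and 0.223 FPKM at 6 h. Retn rose by 1.93 ± 0.44 with QpE (adjusted p = 0.00363) and changed by 0.08 ± 0.44 in controls; the difference of 1.85 (95% interval 0.54 to 3.17) did not pass over all genes (adjusted p = 0.969). G0s2, an inhibitor of triglyceride lipase, had 12.9 to 23.4 FPKM at 24 h and 1.69 to 6.3 FPKM at 6 h, a change of 1.98 ± 0.34. Cidec, which fuses lipid droplets, had 7.8 to 20.9 FPKM at 24 h and 0.316 to 6.57 FPKM at 6 h, a change of 1.86 ± 0.55 (adjusted p = 0.0197, and 0.0588 without replicate 4 at 6 h). Gpd1, which makes glycerol phosphate for triglyceride, was listed at 15.2, 19, 9.79, 0.301 and 15.5 FPKM at 24 h and at 0 in all 5 libraries at 6 h. Joining the unnamed transcripts put Gpd1 at 2.84 to 19 FPKM at 24 h and at 1.12 to 2.04 FPKM at 6 h, a change of 2.17 (adjusted p = 0.00321).

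Of the regulators of the fat cell programme, Pparg and Cebpa rose and Cebpb fell. Pparg, the master regulator of fat cells, had 36.8, 35.7, 41.7, 42.1 and 27.3 FPKM in QpE 24 h cultures against 21.1, 21, 15.6, 7.21 and 30.2 FPKM in QpE 6 h cultures. The groups overlapped through replicate 5, and the change was 1.02 ± 0.25 (adjusted p = 0.00623), against 0.64 ± 0.25 in controls (adjusted p = 0.0884). Its call with QpE was lost when only the QpE groups were fitted with the replicate block and with the most abundant transcript only (adjusted p up to 0.138). Cebpa, its partner in the late programme, had 93.9, 84, 77.4, 53.8 and 57.6 FPKM at 24 h against 57.3, 51.9, 39.7, 30 and 40.7 FPKM at 6 h, a change of 0.73 ± 0.20 (adjusted p = 0.0134). Cebpb, which acts early and upstream of both, fell, with 90.5 to 149 FPKM at 24 h and 142 to 215 FPKM at 6 h and a change of -0.66 ± 0.16 (adjusted p = 0.00439). Cebpd had 6.43 to 10.2 FPKM at 24 h and 4.74 to 10.5 FPKM at 6 h and did not pass. Over the list, 5 of 16 tested pro-adipogenic regulators rose and 3 fell, against 13.0% and 11.5% of all tested genes. Klf5, an early activator of Pparg, was among those that fell (-0.75 ± 0.17), and Zfp467, a zinc finger cofactor, rose by 1.23 ± 0.22. Of 17 tested anti-adipogenic regulators 2 rose and 3 fell, a share near the 24.5% of all tested genes called in either direction. Ddit3, the stress factor CHOP, was the larger of the rises at 1.28 ± 0.17, and Dlk1 (0.03 ± 0.11) did not pass.

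**Figure D4:**
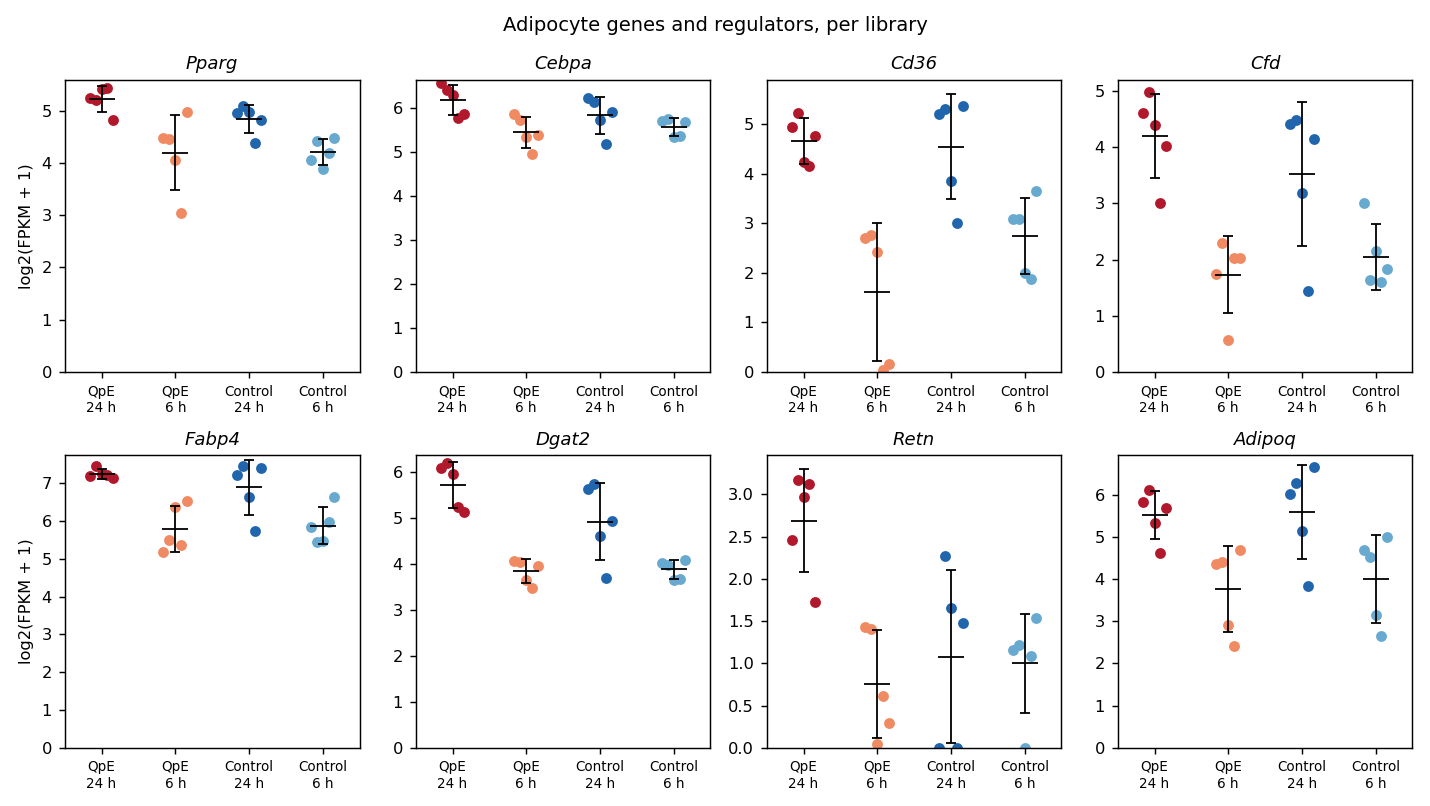
Level of 8 adipocyte genes and regulators in each early library as log2(FPKM + 1), with 5 cultures per group, the mean as a bar and 1 SD as whiskers. With QpE the 24 h libraries lie above the 6 h libraries without overlap for Cd36, Cfd, Fabp4, Dgat2 and Retn, and overlap for Pparg, Cebpa and Adipoq.

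Of 12 tested genes of fatty acid synthesis and desaturation 6 rose and 1 fell with QpE, with a median of 0.34, and 6 rose in controls, with a median of 0.40. Of all tested genes 13.0% rose and 11.5% fell with QpE. With all 30 libraries in the fit 1 of the 12 rose with QpE, and with every library at the same FPKM sum 4 did. Fasn, fatty acid synthase, had 56.7, 49.8, 57.9, 48.9 and 49 FPKM in QpE 24 h cultures against 42.2, 40.7, 37.6, 38.3 and 46.1 FPKM in QpE 6 h cultures, a change of 0.35 ± 0.06 (adjusted p = 6.42e-04). Me1, which makes NADPH, rose by 0.66 ± 0.11, and Fads1, a desaturase, by 0.54 ± 0.10. The mouse acetyl-CoA carboxylases did not pass: Acaca had 0.315 to 9.08 FPKM at 24 h and 0.266 to 5.86 FPKM at 6 h, a change of 0.29 ± 0.65, and Acacb had 1.56 to 3.95 FPKM at 24 h and 0.952 to 1.67 FPKM at 6 h, a change of 0.58 ± 0.22 (adjusted p = 0.0594, and under 0.05 without replicate 3 or 5 of QpE at 24 h or replicate 1 of control at 24 h). With unnamed transcripts joined Acaca stood at 10.4 to 17.6 FPKM at 24 h and 8.66 to 12.9 FPKM at 6 h (change 0.31, adjusted p = 0.0735), and Acacb passed with a change of 0.71 (adjusted p = 0.0107). Plin1, the droplet coat protein, had a change of 0.05 ± 0.32 by name and of 0.89 (adjusted p = 0.0348) when its unnamed transcripts were joined. Lpl, lipoprotein lipase, was listed at 346, 13.5, 325, 268 and 285 FPKM at 24 h and at 307, 20.4, 211, 178 and 342 FPKM at 6 h. Its replicate 2 was low at both times by gene name and the highest, at 514 FPKM and 461 FPKM, once unnamed transcripts were joined; neither sum passed the test.

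Genes of fat burning and respiration shifted slightly. Of 27 nuclear genes of oxidative phosphorylation 16 rose with QpE and none fell, with a median of 0.32; in controls 2 rose, with a median of 0.08. Scaling to the same FPKM sum left 10 of the 27 called and a median of 0.22, and leaving out replicate 4 of QpE at 24 h left 12. With unnamed transcripts joined 24 rose, with a median of 0.34, and with the replicate block over all 20 libraries 17 rose. Atp5b, a subunit of ATP synthase, had 507, 528, 565, 531 and 453 FPKM in QpE 24 h cultures against 412, 437, 274, 408 and 385 FPKM in QpE 6 h cultures, a change of 0.45 ± 0.10 (adjusted p = 0.00275). It changed by 0.09 ± 0.10 in controls, and the difference of 0.36 (95% interval 0.06 to 0.65) did not pass (adjusted p = 0.969). With unnamed transcripts joined, Atp5b stood at 396 FPKM in replicate 3 of QpE at 6 h, and its change with QpE was 0.34. Cycs, cytochrome c, had 45.8 to 61.7 FPKM at 24 h and 38 to 45.7 FPKM at 6 h, a change of 0.42 ± 0.10 with QpE and 0.03 ± 0.10 in controls. Of 20 tested genes of fatty acid oxidation and PPAR targets 6 rose and 3 fell. Plin2, a droplet coat protein and PPAR target, had 41.7 to 68.8 FPKM at 24 h and 26.3 to 30 FPKM at 6 h, a change of 0.90 ± 0.16, while Ucp2, a carrier of the inner mitochondrial membrane, fell by 0.94 on the log2 scale. Pdk4 (-0.03 ± 0.19) and Angptl4 (0.73 ± 0.43), both PPAR targets, did not pass. Of 21 genes of cholesterol synthesis and uptake 4 rose and 2 fell, and of 15 genes of glycolysis 2 rose and 3 fell, shares near the 24.5% of all tested genes called in either direction.

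Genes of the TGF-β, BMP and Wnt pathways were lower in part. Of 20 tested genes of the TGF-β and BMP pathway 12 fell and 1 rose, with a median of -0.57, and in controls 13 fell and 2 rose, with a median of -0.81. Id2, an inhibitor of basic helix-loop-helix factors, had 3.75, 9.2, 11, 10.2 and 6.02 FPKM in QpE 24 h cultures against 27.9, 23.4, 28.6, 27.7 and 36.3 FPKM in QpE 6 h cultures, a change of -1.79 ± 0.23 (adjusted p = 2.23e-05). Its relative Id3 changed by -1.42 ± 0.14. Of 15 tested genes of the Wnt pathway 5 fell and 1 rose, against 11.5% and 13.0% of all tested genes. Wisp2, a secreted target also named Ccn5, had 33.9 to 59.1 FPKM at 24 h and 91.1 to 171 FPKM at 6 h, a change of -1.43 ± 0.17. Fst, follistatin, which binds activin, had 14, 17.5, 19.5, 13.5 and 15.6 FPKM at 24 h against 44.7, 36.7, 49.4, 45.6 and 42.8 FPKM at 6 h. It changed by -1.40 ± 0.12 with QpE and -0.76 ± 0.12 in controls, a difference of -0.64 (95% interval -0.99 to -0.29) that did not pass (adjusted p = 0.826). With unnamed transcripts joined, Fst changed by -1.005 with QpE, with means of 25.6 FPKM at 24 h and 52.5 FPKM at 6 h. The joined control means were 30.4 FPKM at 24 h and 46.8 FPKM at 6 h.

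The matrix changed gene by gene. Of 27 tested extracellular matrix genes 8 fell and 1 rose with QpE, with a median of 0.11, which was -0.02 with unnamed transcripts joined; in controls 6 fell and 7 rose. Fn1, fibronectin, had 217, 196, 254, 262 and 202 FPKM in QpE 24 h cultures against 344, 344, 573, 643 and 401 FPKM in QpE 6 h cultures, a change of -0.98 ± 0.20 (adjusted p = 0.0012). Col4a1, a basement membrane collagen, had 379 to 470 FPKM at 24 h and 548 to 717 FPKM at 6 h, a change of -0.58 ± 0.09. Mmp13, a collagenase, was one of 3 proteases and inhibitors that rose out of 17 tested, with 21.4, 26.7, 7.63, 7.32 and 15.4 FPKM at 24 h against 7.13, 7.24, 1.57, 1.2 and 1.64 FPKM at 6 h. The change was 1.90 ± 0.52 (adjusted p = 0.012) and 2.51 ± 0.52 in controls. Plaur, the urokinase receptor, was 1 of 5 that fell, with a change of -2.25 ± 0.41. The counts of both lists are to be read against the 13.0% of all tested genes that rose and the 11.5% that fell.

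Immune-related lists moved in both directions. Of 20 tested interferon-stimulated genes 12 rose with QpE and none fell, with a median of 0.41; in controls 8 rose, with a median of 0.38. With every library at the same FPKM sum, 8 of the 20 rose with QpE. Irf1, an interferon response factor, had 20.6, 24.2, 23.5, 23.3 and 26.7 FPKM in QpE 24 h cultures against 19, 16.7, 12.2, 14.9 and 17.1 FPKM in QpE 6 h cultures, a change of 0.55 ± 0.11 (adjusted p = 0.00135). H2-K1, an MHC class I heavy chain, rose by 0.59 ± 0.13, and its reads may be shared with near-identical H2 genes. Of 18 tested inflammatory and NF-κB genes 6 fell and 1 rose, against 11.5% and 13.0% of all tested genes. Il1rl1, the receptor of IL-33, had 29.1, 32, 25.2, 31.8 and 45.6 FPKM at 24 h against 140, 141, 240, 211 and 121 FPKM at 6 h, a change of -2.32 ± 0.24 (adjusted p = 2.07e-06). Csf1, the macrophage growth factor, had 35.5 to 45.5 FPKM at 24 h and 88.7 to 107 FPKM at 6 h, a change of -1.33 ± 0.09 (adjusted p = 2.36e-08) and -0.98 ± 0.09 in controls.

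Stress and detoxification genes were split. Ephx1, microsomal epoxide hydrolase, had 50.9, 61.6, 70.2, 64.2 and 51.8 FPKM in QpE 24 h cultures against 17.7, 15.4, 11.2, 12.2 and 14.6 FPKM in QpE 6 h cultures. It rose in both courses, by 2.00 ± 0.16 with QpE (adjusted p = 1.89e-07) and 1.91 ± 0.16 in controls, a difference of 0.09 (95% interval -0.40 to 0.58). Aldh1a7, an aldehyde dehydrogenase, had 68.5, 71.5, 65.8, 50.4 and 36.2 FPKM at 24 h against 15.3, 15.6, 5.46, 4.92 and 13.4 FPKM at 6 h, a change of 2.42 ± 0.44; its reads may be shared with the close copy Aldh1a1. Of 18 tested NRF2 antioxidant targets 5 rose and 5 fell, against 13.0% and 11.5% of all tested genes. Srxn1, sulfiredoxin, stood at -1.05 ± 0.14 and Gsr, glutathione reductase, at 0.80 ± 0.13. Ahr, the aryl hydrocarbon receptor, fell by 1.23 on the log2 scale and its target Cyp1b1 did not pass (0.43 ± 0.24). Among 21 genes of the integrated stress response 4 rose and 2 fell, led by Trib3, a pseudokinase, at 1.33 ± 0.25, with Ddit3 given above and Nupr1, a stress-induced chromatin protein, at 1.26 ± 0.12. Of 20 genes of ER folding 5 rose and 1 fell, the largest being Ero1l, an oxidase of disulfide formation, at 0.88 ± 0.12 with QpE and 0.50 ± 0.12 in controls. The shares called in these last 2 lists are near the 24.5% of all tested genes.

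In the remaining lists the share of members called in either direction is to be read against the 24.5% of all tested genes. Of 17 tested clock genes 3 rose and 3 fell: Dbp, an output gene, had 35.2, 35, 41.3, 46.9 and 13.1 FPKM in QpE 24 h cultures against 11.6, 14.4, 7.43, 10.2 and 15.8 FPKM in QpE 6 h cultures (change 1.39 ± 0.31), while the repressor Cry1 changed by -1.27 ± 0.17. Of 14 tested cAMP response genes 3 rose and 5 fell, and of 15 tested glucocorticoid targets 3 rose and 3 fell, with Errfi1, a brake on EGF receptor signalling, at -1.03 ± 0.27. Of 20 tested genes of insulin and IGF signalling 6 rose and 3 fell. Igf2r, the receptor that clears IGF2, had 77.7 to 87.9 FPKM at 24 h and 37.7 to 51.2 FPKM at 6 h (0.89 ± 0.09 with QpE, 0.95 ± 0.09 in controls), and Irs2, an adaptor of the insulin receptor, changed by -0.77 ± 0.16. Of 15 cytosolic heat shock genes 4 rose and 6 fell, with the co-chaperone Bag3 at -0.82 ± 0.14, and of 17 tested hypoxia targets 1 rose and 1 fell. Agtr2, the angiotensin type 2 receptor, had 12.8, 15.7, 13.7, 13.5 and 1.6 FPKM at 24 h against 4.71, 4.79, 3.13, 1.06 and 4.16 FPKM at 6 h, a change of 1.29 ± 0.40 (adjusted p = 0.0251) that was lost without any 1 of 5 libraries (replicates 1 to 4 at 24 h, or 4 at 6 h) and became 1.57 (adjusted p = 2.71e-07) when unnamed transcripts were joined.

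**Figure D5:**
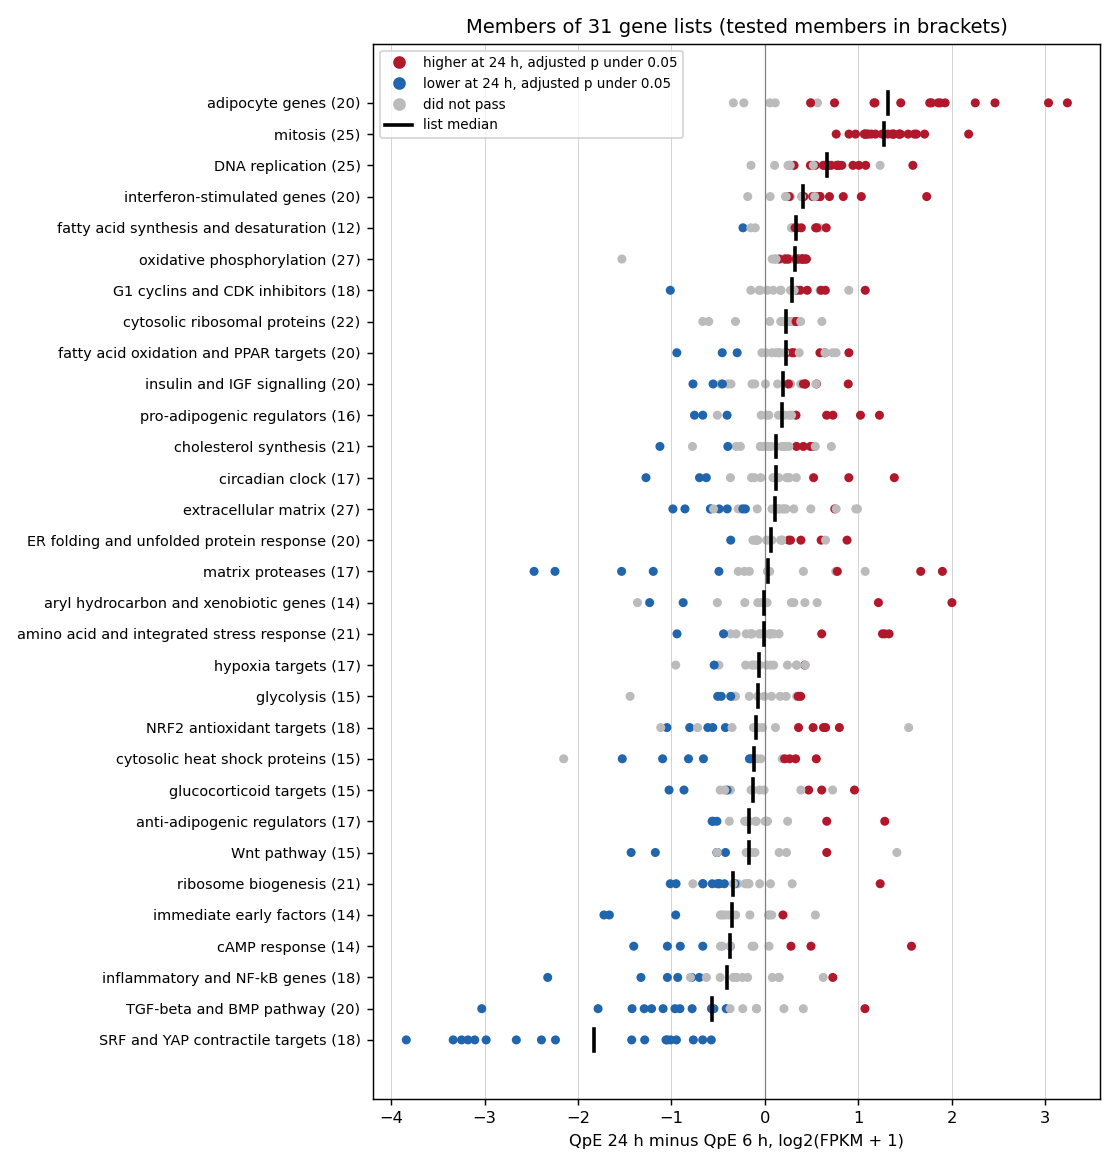
Change of every tested member of 31 gene lists between QpE 24 h and QpE 6 h cultures (x axis, log2(FPKM + 1), 24 h minus 6 h). Each point is a gene, red when it rose, blue when it fell and grey when it did not pass an adjusted p of 0.05, and the black bar is the list median, which ranged from -1.83 for the contractile targets to 1.32 for the adipocyte genes.

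The genes with the smallest p for a difference between the QpE and control courses were Uhrf2, Btg1, Tob1, Meis2 and Sdc2, each with an adjusted p of 0.826. Uhrf2, a relative of Uhrf1 that binds hydroxymethylated DNA, had 45.8, 71.4, 61.8, 109 and 35.4 FPKM in QpE 24 h cultures against 12.9, 29.3, 24.9, 23.9 and 17.7 FPKM in QpE 6 h cultures. It rose by 1.48 ± 0.25 with QpE and changed by -0.17 ± 0.25 in controls, but its change with QpE was 0.79 when unnamed transcripts were joined. Tob1, an antiproliferative protein, had 41.3 to 48.1 FPKM at 24 h and 30.3 to 36.6 FPKM at 6 h (0.39 ± 0.05 with QpE, 0.06 ± 0.05 in controls), and its relative Btg1 had 101 to 132 FPKM at 24 h and 119 to 130 FPKM at 6 h (-0.18 ± 0.10 with QpE, -0.81 ± 0.10 in controls). Sdc2, the proteoglycan syndecan 2, had 26.3 to 32.4 FPKM at 24 h and 39.1 to 44.7 FPKM at 6 h, a change of -0.53 ± 0.06 with QpE and -0.17 ± 0.06 in controls. Meis2, a homeobox factor, had 3.91 to 13.5 FPKM at 24 h and 1.23 to 10.3 FPKM at 6 h, with overlap. Its change was 1.29 ± 0.44 with QpE (adjusted p = 0.0403) and -1.38 ± 0.44 in controls (adjusted p = 0.0343), the only gene called in opposite directions by the 2 courses, and the QpE call was lost without any 1 of 8 libraries (all but replicate 3 at 24 h and replicate 4 at 6 h).

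By the size of the fitted change mt-Cytb, mitochondrial cytochrome b, would lead all rises, but it was listed at 797, 806, 757, 634 and 755 FPKM in QpE 24 h cultures and at 2.76, 520, 0, 227 and 0 FPKM in QpE 6 h cultures. Other mitochondrial genes were listed at 0 in some libraries as well (mt-Co1 in 9 of the 20 and mt-Co3 in 14), so no fold is given. Vim, vimentin, showed the same instability of gene names: it had 120 to 1770 FPKM by name in QpE 24 h cultures and 79.9 to 264 FPKM in QpE 6 h cultures, but 991 to 1770 FPKM in QpE 24 h cultures and 1170 to 1610 FPKM in QpE 6 h cultures once unnamed transcripts of its locus were joined.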

How the data were processed

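RNA of 3T3-L1 cultures was sequenced as paired reads from a directional poly(A) library kit, per the labels' protocols; the submitters' processing notes name HISAT, HISAT2, StringTie and GRCm38. The authors deposited 1 table of FPKM values for 150146 assembled transcripts, of which 16259 carry no gene name and hold 10.7% to 14.2% of a library's FPKM. In 10 columns the deposited unit was recorded as other, since 11 FPKM values lie just below 0, and these were set to 0. Transcript FPKM was summed per gene name, genes with at least 1 FPKM in at least 5 of 20 early libraries were kept, and log2(FPKM + 1) was fitted in limma 3.58.1 (R 4.3.3) with 4 groups of 5, empirical Bayes moderation with a trend and Benjamini-Hochberg adjustment over 12332 genes. The fit was tested on simulated data with each group's own spread: a larger share of its calls was false than the adjusted p allows, and small changes were often missed, so a call near the threshold is weak evidence.

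Depth was estimated only, with 150 bases assumed for each read pair. Of low values 60.9% to 70.4% were whole multiples of 1 covered base (tolerance 0.004), too few to recover counts. Library number limits precision. Named genes were the 12 largest rises and 12 largest falls with QpE among called genes whose libraries did not overlap and whose higher group averaged at least 5 FPKM, the 5 genes with the smallest p for the difference between courses, up to 3 called members with the largest change of each list, and a fixed set; genes of the promoter paragraphs, Kif20a and Vim were added after their values were seen; some genes are not reported here. The members and lists were chosen with earlier results of these data known. Alternatives covered scaling, pseudocount, filter, transcript handling, samples in the fit and each library left out.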

Additional observations from a re-analysis of the deposited data

Results flagged for a closer look

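In 262 groups of 5 libraries, 1 for each gene reported and QpE time, a library far from the other 4 was found 22 times, against about 13 that chance gives (about 1 in 20). At QpE 24 h replicate 4 was far below the others for mt-Cytb (634 FPKM), Gpd1 (0.301 FPKM), Plaur (0.132 FPKM) and Nop58 (5.8 FPKM). At QpE 24 h replicate 5 was the far one for Cycs (45.8 FPKM), Dbp (13.1 FPKM), Dnajb9 (14.5 FPKM), Abhd5 (27.1 FPKM) and Agtr2 (1.6 FPKM), all low, and for Ccnd1 (70.8 FPKM), high. Of the other 24 h libraries, Thbs1 stood at 7.51 FPKM in replicate 3, Btg1 at 132 FPKM and Hspa1a at 7.08 FPKM in replicate 1, and Rrp12 at 7.83 FPKM and Lpl at 13.5 FPKM in replicate 2. At QpE 6 h the far libraries were replicate 2 for Hspa1a (2.14 FPKM) and Lpl (20.4 FPKM), replicate 3 for Atp5b (274 FPKM) and Errfi1 (52.5 FPKM), and replicate 4 for G0s2 (1.69 FPKM). Replicate 5 at QpE 6 h was far from the others for Fads1 (66.9 FPKM) and Cdkn1a (15.7 FPKM). All these are sums by gene name, and the search was not repeated with unnamed transcripts joined. Joined, the flagged libraries stood at 3.22 FPKM for Plaur (group 3.22 to 7.08), 12.6 for Agtr2 (12.6 to 15.7) and 86.9 for Abhd5 (81.5 to 101). Atp5b stood at 396 FPKM (385 to 437), Thbs1 at 18.4 FPKM (18.4 to 26.3), and Lpl replicate 2 was the highest. Gpd1 stayed lowest at 2.84 FPKM, and mt-Cytb and Nop58 were unchanged.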

How the results depend on the processing

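Of the 31 list medians 24 kept their sign under all 35 alternatives, and 7, between -0.076 and 0.112 as reported, had the other sign in 27 of all 1085 values (-0.143 to 0.125): glycolysis, extracellular matrix, matrix proteases, integrated stress response, ER folding, aryl hydrocarbon genes and hypoxia targets. Of 4652 values of the 133 named genes 4425 kept their side of the threshold and, where called, their direction. Genes that did not pass could change sign within that count. With single libraries left out, Acaca went down to -0.05 (0.29 as reported) and Lpl to -0.60 (0.11 as reported). Aldoa, an enzyme of glycolysis, reversed, at -0.90 with the most abundant transcript only against 0.38; the cause was not tested. Counts moved by over 1.5 times were 1064 higher and 916 lower for QpE with the compared groups only and the replicate block, 1031 higher for QpE with libraries scaled to 1 FPKM sum, and 718 higher for controls with all 30 libraries. Leaving out each library in turn gave 1268 to 1695 higher and 1193 to 1461 lower for QpE, and 831 to 1191 higher and 1092 to 1429 lower for controls. Among others, Cdkn1a, Cebpa, Cidec, Fasn, H2-K1, Me1, Mmp13, Tob1, Agtr2 and Meis2 lost their call with all 30 libraries, Atp5b, Dbp, Junb, Pparg, Agtr2 and Meis2 with the compared groups only and the replicate block, and Cidec, Fn1, Myc, Nupr1, Pparg, Tk1, Zfp467, Cdk1, Nop58 and Meis2 with the most abundant transcript only. The difference between the courses gave 0 to 1 genes when single libraries were left out: Capn1 without QpE 24 h replicate 4 (-4.82, adjusted p = 6.38e-06 in limma), Zfp583 without control 6 h replicate 4 (-1.19, adjusted p = 0.0122) and Btg1 without control 6 h replicate 5 (0.75, adjusted p = 0.0017). Of 2170 list counts 179 moved by over 1.5 times; with single libraries left out, heat shock genes that rose numbered 1 to 4, fatty acid oxidation genes that rose 3 to 7 and that fell 1 to 3, and ribosomal protein genes that rose 0 to 7.

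With the replicate block over all 20 libraries 1800 genes were higher and 1521 lower with QpE. Whether the numbers pair cultures was not settled. Over all tested genes, same-numbered QpE 24 h and QpE 6 h libraries correlated at 0.0192 to 0.0704 in their deviations. Of these, 2 of 5 correlated best with their own number. Some named genes did follow the number: in all 4 groups Adipoq was lowest in replicates 3 and 4 and Mmp13 highest in replicates 1 and 2. Between QpE and control libraries of the same time the same numbers correlated at 0.0218 to 0.143 at 24 h and at 0.0284 to 0.147 at 6 h, where replicates 1 to 4 (0.102 to 0.147) correlated best with their own number and replicate 5 did not, so not every pair was above 0.1. The block left the difference between the courses at 0 genes, as did a block within each time, added after seeing the data. For QpE against control at 24 h, 0 genes as reported, the block over all 20 libraries gave 22 genes, the block within each time 19, scaling to 1 FPKM sum 1, at least 5 FPKM in 5 libraries 5, unnamed transcripts joined 3, the most abundant transcript only 3, and single libraries left out 0 to 2. At 6 h these alternatives gave 0 genes, and single libraries left out 0 to 1. Depth is estimated, so no counting interval is given for any value.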
